A study of Medicago truncatula with 24 samples.

Results

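Small RNAs were compared between roots of the compact root architecture mutant cra2 and of the control line A17 of Medicago truncatula, a model legume, after a local nitrogen deficit. The comparison takes the 3 cra2 and the 3 A17 root libraries of the deficit treatment among 24 libraries of the series, and all 427 sequences listed in each of them. CRA2 is a receptor kinase that perceives CEP peptides, which nitrogen-starved roots make. Plants grew in hydroponics with 0.5 mM KNO3 under 16 h of light, and their root systems were split at 3 weeks of age. One side, the local compartment, then received 0.05 mM KNO3 (deficit) or 10 mM NH4NO3 (satiety) for 4 days, while the other side, the systemic compartment, had no mineral nitrogen in both treatments, and plants were harvested at 4 weeks of age. Both genotypes therefore had a systemic compartment without mineral nitrogen. That the root libraries come from that compartment rests on the description of the series, since the labels of single libraries give only the organ, the genotype and the local treatment. Nothing in the labels says whether replicates were separate plants or pools, and every p-value therefore rests on a spread between samples that could be technical. Small RNA libraries do not read the CRA2 transcript, and the genotype labels were not checked here. The sources used here do not name the mutant allele.

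MicroRNAs (miRNAs) are RNAs of mostly 21 nt that are cut from a hairpin precursor as a mature strand and a strand from the opposite arm, and the mature strand guides the cleavage or repression of transcripts that pair with it. Several plant families answer to nutrients: miR2111 moves from shoot to root and targets the nodulation repressor TML, miR399 targets the phosphate regulator PHO2 and also moves in the phloem, and the copper families miR398, miR408 and miR2119 are induced in many plants when copper is scarce. In legumes CEP peptides acting through CRA2 are known to raise miR2111, which favours nodulation.

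The strands that carried the comparison are printed 5′ to 3′ as the deposited tables give them, as DNA letters, with the seed (bases 2 to 8) in capitals. The first set holds the main mature strand of each family that differed between the genotypes, chosen because the rest of the results refers to it:
miR2111 mature: tAATCTGCatcctgaggttta
miR399 mature: tGCCAAAGgagatttgccctg
miR398 mature: tGTGTTCTcaggtcacccctt
miR408 mature: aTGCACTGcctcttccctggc
miR2119 mature: tCAAAGGGaggtgtggagtag
miR169 mature: tGAGCCAAagatgacttgccgg
miR172 mature: aGAATCTTgatgatgctgcat
miR164 mature: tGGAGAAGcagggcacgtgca
miR319 mature: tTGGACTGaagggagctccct
miR390 mature: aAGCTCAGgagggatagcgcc
miR1509 mature: tTAATCTAggaaaatacggtg
The second set holds opposite-arm strands whose values are set beside those of their mature partners:
miR2111 opposite arm, form 1: aGCCTCGGagtgcggattatc
miR2111 opposite arm, form 2: aTCCTTGGaatgcagattatc
miR398 opposite arm: gGAGTGACactgagaacacaag
miR172 opposite arm: gTAGCATCatcaagattcaca
The third set holds sequences outside the named families that differed most, or that pair with each other like the 2 arms of a hairpin, and they are referred to below by the letters A to H:
A: tACTTGGTgaattgttggatc
B: tCTAATTAttcaccaagtaaa
C: aCAAAGACattggaaggctta
D: aCAAGTAGaaccttttttctg
E: tTCGGGTTgataatattttctt
F: tTAATCTAggaaattacactcg
G: tTTTCCAAttctaagtctatc
H: tAGATTTAgaattagaaaagc

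Total counts were 1358742 to 1564381 in the A17 libraries and 768323 to 1150733 in the cra2 libraries, so each cra2 library was smaller than each A17 library. Of the 427 sequences 306 had a count in these 6 libraries and 121 had none. Letter patterns placed 98 of the 427 in miRNA families, 67 as mature and 31 as opposite-arm strands, and 28 families with counts held 96.7% of the counts. A single miR159 sequence took 70.2% to 77.2% of an A17 library and 67.1% to 73.8% of a cra2 library. Sequences of 21 nt made up 93.8% to 94.8% of all counts in these libraries and sequences of 24 nt 0.05% to 0.067%. All replicate pairs differed beyond sampling noise (chi-square per degree of freedom 26.4 to 174).

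Of 168 sequences with enough counts to test, 55 (32.7%) passed in the contrast of cra2 with A17 (edgeR quasi-likelihood test, Benjamini-Hochberg adjusted p under 0.05), with 20 (11.9%) higher and 35 (20.8%) lower in cra2. DESeq2 called 59. The cra2 and A17 libraries did not overlap for 77 sequences (45.8%), of which 37 (22%) were above A17 in all 3 cra2 libraries and 40 (23.8%) below. The calls split unevenly between known families and other sequences: of 63 tested sequences in a family 26 were lower and 3 higher, while of 105 without a family 9 were lower and 17 higher. The median log2 change over all 168 was 0.04. The split depended on the scaling, with 20 higher and 35 lower under TMM, 26 and 33 under RLE, 25 and 25 with library totals and 8 and 42 with upper-quartile scaling, which moved the median of all sequences to -0.19. Each of the 55 kept its sign under the 4 scalings, and 25 of the 35 lower and 8 of the 20 higher were called under all of them.

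**Figure D1:**
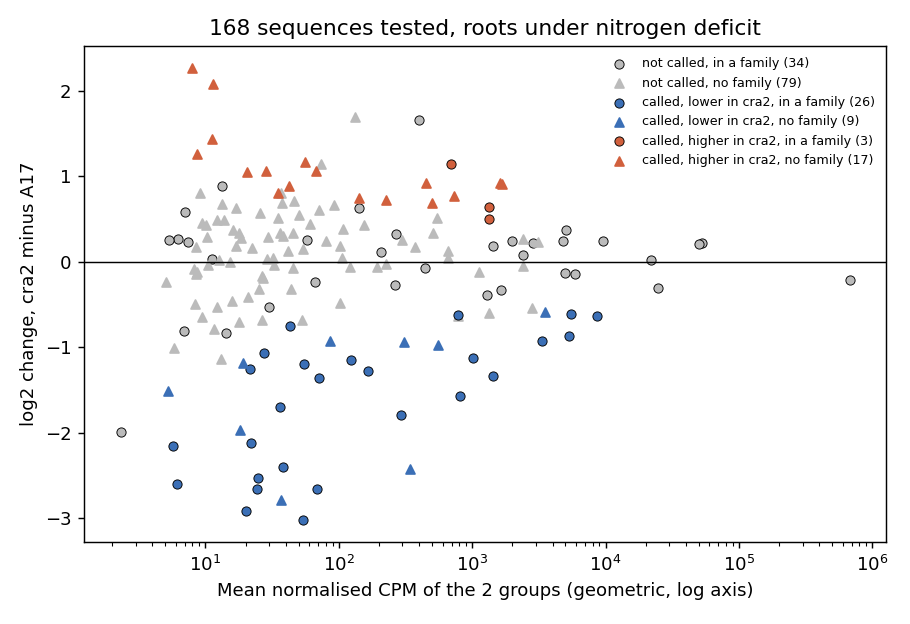
Log2 change (cra2 minus A17) of each of the 168 tested sequences in roots under deficit, against the geometric mean of the 2 groups' mean normalised CPM on a log axis. Circles are sequences in a named family and triangles the others; most of the points called lower are circles (26 of 35) and most of those called higher are triangles (17 of 20).

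Counts were also summed per family, both arms together, and tested with the unassigned sequences in 1 table of 129 entries, of which 39 (30.2%) passed, 22 (17.1%) higher and 17 (13.2%) lower. The scaling moved this split as well: it was 18 and 20 under RLE, 25 and 15 with library totals and 6 and 29 with upper-quartile scaling. Among the 24 named families 11 (45.8%) passed, 9 (37.5%) lower and 2 (8.33%) higher. The libraries of the genotypes did not overlap for 46.5% of the 129 entries. The median of the whole table was 0.17, so small positive values lie near the centre of the table. Levels below are TMM-normalised CPM (counts divided by the scaled total of their library), changes are log2 (cra2 minus A17) with the SE of the fit, and every adjusted p is from edgeR's quasi-likelihood test over the whole table.

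The mobile nutrient families showed the largest decreases. miR2111, which targets TML, stood at 657, 499.6 and 706 CPM in A17 and at 92.8, 135 and 69.4 CPM in cra2. The groups were far apart, with the highest cra2 library well below the lowest A17 library. The fitted change was -2.65 ± 0.37 (99.2 ± 33.4 against 621 ± 108 CPM, SD, n = 3 each; adjusted p = 4.6e-05). All 6 tested miR2111 sequences were called lower, against 20.8% of all 168 sequences, with changes from -2.41 to -3.02. The mature strand changed by -3.02 ± 0.36, from 112 to 209 CPM in A17 to 14.1 to 24.5 CPM in cra2 (adjusted p = 2.03e-06). Opposite-arm form 1 changed by -2.91 ± 0.40 and form 2 by -2.66 ± 0.41, each with no overlap between the genotypes. The opposite arm made up most of the family in both genotypes, with 74.2% of miR2111 counts in A17 and 79.4% in cra2. A further form, aGCCTTGGgatgctgattatc, was too rare to test and had 25 counts in A17 and 5 in cra2.

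miR399, which targets the ubiquitin-conjugating enzyme PHO2, was rare in these roots and stood at 25.6, 33.6 and 33.1 CPM in A17 against 6.48, 0.946 and 5.93 CPM in cra2. Each cra2 library lay below each A17 library, and cra2 replicate 2 was near the detection limit. The family change was -2.77 ± 0.41 (adjusted p = 3.22e-05). The most abundant form, tGCCAAAGgagatttgccctg, fell by 2.60 (SE 0.52, adjusted p = 0.000559). A further form, tGCCAAAGgagagctgccctg, had a log2 change of -1.99 ± 0.79 and missed the threshold (adjusted p = 0.0572). Of forms too rare to test, tGCCAAAGgagagctgctctt had 17 counts in A17 and 0 in cra2, which makes it at least 3.97-fold lower per total count (floor of 3 counts over the cra2 group). The form tGCCAAAGgagagctgcccta had 24 counts against 1, a ratio per total of 16.8 with an exact 95% interval of 2.74 to 691 that covers counting error only. All these forms share the seed of the family. Counting every tested sequence of the mobile nutrient list (miR2111 and miR399; the sulfate family miR395 was too rare), 7 of 8 were lower, 0 were higher and the median change was -2.63. Over all 168 sequences 20.8% were lower, 11.9% were higher and the median was 0.04.

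In the copper families 5 of 5 tested sequences were lower (median -1.28), against 20.8% of all 168 sequences. miR398, which targets copper/zinc superoxide dismutases, stood at 3089.96, 3112 and 3093 CPM in A17 and at 1229, 1596 and 1038 CPM in cra2. The A17 libraries were nearly equal and the 3 cra2 libraries lay well below them. The family change was -1.27 ± 0.21 (adjusted p = 5.39e-05). The opposite arm changed by -1.57 ± 0.24 and the main mature strand by -1.13 ± 0.23. The share of the opposite arm in the family was 46.9% in A17 and 38.9% in cra2. A second mature form, tGTGTTCTcaggtcgcccctg, changed by -1.20 ± 0.42, and its call was lost without any 1 of 5 of the 6 libraries (adjusted p up to 0.18).

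miR408, which targets plantacyanins and laccases, stood at 77.6, 84.4 and 69.7 CPM in A17 and at 21.6, 33.1 and 20.3 CPM in cra2, a change of -1.62 ± 0.35 (adjusted p = 0.00115). miR2119, a legume family that targets an alcohol dehydrogenase, stood at 178, 339.9 and 289 CPM in A17 and at 100.4, 153 and 91.4 CPM in cra2. For both families the highest cra2 library lay below the lowest A17 library. The change of miR2119 was -1.23 ± 0.28 (adjusted p = 0.00163). The laccase-targeting family miR397 was too rare to test: its mature strand had 13 counts in A17 and 1 in cra2, a ratio per total of 9.1 (exact 95% interval 1.37 to 387, counting error only).

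**Figure D2:**
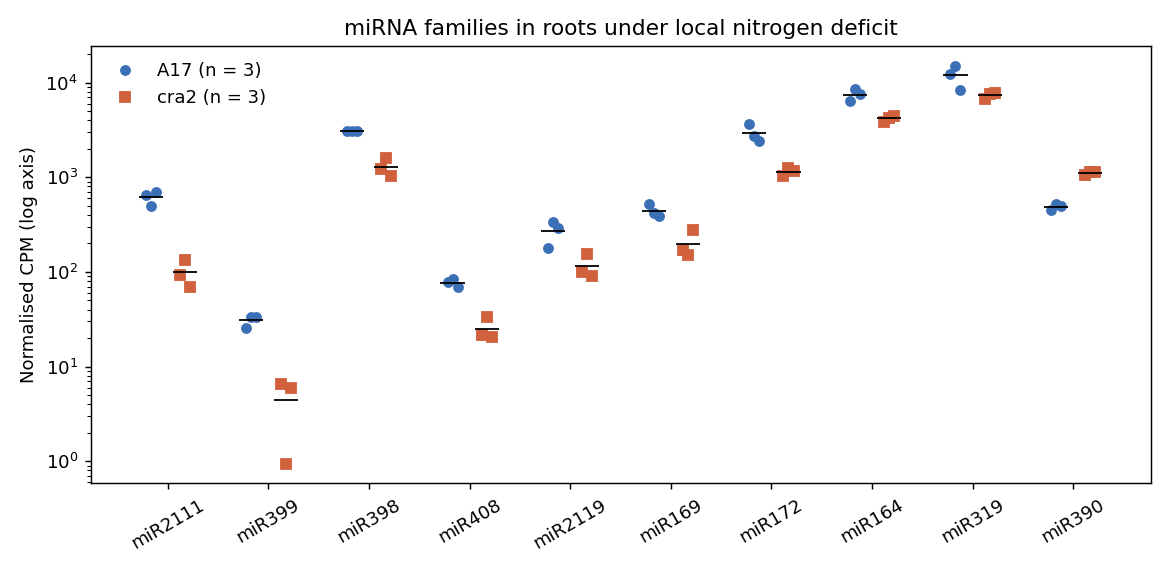
Normalised CPM (log axis) of 10 miRNA families in each root library under deficit, circles for A17 and squares for cra2 (n = 3 each), with a bar at each mean. The 3 cra2 libraries lie below the 3 A17 libraries for 9 families and above them for miR390, for example 1063 to 1134 against 446 to 525 CPM.

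miR169, which targets NF-YA transcription factors, known in legumes for their part in nodule development, stood at 527, 417 and 388 CPM in A17 and at 171, 149 and 279 CPM in cra2. The groups did not overlap, and cra2 replicate 3 was the nearest to A17. The family change was -1.15 ± 0.23 (adjusted p = 0.000544). Of its 7 tested sequences 4 were lower and 0 higher (median -1.07), against 20.8% lower and 11.9% higher over all sequences. Of these 4 calls that of tGAGCCAGgatgacttgccgg (-1.07, adjusted p = 0.0351) was lost in 6 of 18 alternatives, 4 of them without 1 library. The members differed among themselves. gAGCCAAGgatgacttgccgg fell from 36.2 to 61.3 CPM in A17 to 6.52 to 16.6 CPM in cra2, a change of -2.12 ± 0.37 (adjusted p = 0.000157). cAGCCAAGgatgacttgccgg, which shares that seed, was at 0.27 ± 0.54 (adjusted p = 0.738), with 4.7 to 7.11 CPM in A17 and 4.89 to 8.38 CPM in cra2. These forms were not tested against each other, and near-identical sequences can exchange counts. The opposite arm gGCAGGTCatccttcggctata changed by -1.35 ± 0.27.

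miR172, which targets AP2-type transcription factors and regulates phase change and, in legumes, nodulation, stood at 3673, 2744 and 2432 CPM in A17 and at 1025, 1246 and 1169 CPM in cra2. Every cra2 library lay far below every A17 library, and the change of -1.36 ± 0.18 had the smallest adjusted p of all families (1.06e-05). Of 4 tested miR172 sequences 3 were called lower, against 20.8% of all 168 sequences, and all 4 values were below 0. The most abundant, aGAATCTTgatgatgctgcat, changed by -1.33 ± 0.20. aGAATCCTgatgatgctgcag, with another seed, changed by -1.79 ± 0.25, and the opposite arm by -2.16 ± 0.52. The remaining form, aGAATCTTgatgatgctgca, is a shorter version of the most abundant and was at -0.81 ± 0.51 (adjusted p = 0.241).

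miR156, which targets SPL transcription factors and acts before miR172 in phase change, was not called as a family (0.72 ± 0.35, adjusted p = 0.131), although its cra2 libraries (2986, 2586 and 3113 CPM) lay above those of A17 (1206, 1991 and 2064 CPM). Of its 6 tested sequences 1 was higher (11.9% of all sequences were): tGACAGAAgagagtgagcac, at 0.64 ± 0.21 (adjusted p = 0.0228). With upper-quartile scaling it was at 0.39 (adjusted p = 0.191), and its call was also lost with 24 libraries in the fit, without A17 replicate 1 and without cra2 replicate 1. Another, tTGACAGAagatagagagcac, stood at 116, 284 and 277 CPM in A17 and at 715, 573 and 841 CPM in cra2. Its groups were apart, but the change of 1.65 ± 0.72 missed the threshold (adjusted p = 0.111). tTGACAGAagatagagggcac, with the same seed, was at -0.27 ± 0.57 (adjusted p = 0.759).

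Of 7 tested sequences in the families tied to auxin and lateral roots 2 were higher and 2 lower, against 11.9% and 20.8% of all sequences. miR390, which triggers the TAS3 small RNAs that repress auxin response factors, stood at 446, 525 and 494 CPM in A17 and at 1063, 1132 and 1134 CPM in cra2. Replicates were close together in both genotypes, and every cra2 library held more than every A17 library. The change was 1.18 ± 0.19 (adjusted p = 5.39e-05), and this was the largest increase among the 24 families. miR164, which targets NAC transcription factors, among them NAC1, known in Arabidopsis to promote lateral root formation, stood at 6407, 8482 and 7528 CPM in A17 and at 3864, 4201 and 4485 CPM in cra2. Its change was -0.84 ± 0.18 (adjusted p = 0.000979). The miR164 form tGGAGAAGcagggcacatgct was at -1.26 (adjusted p = 0.0178), a call lost in 4 of 18 alternatives. miR167, which targets auxin response factors, was at 0.36 ± 0.17 as a family (adjusted p = 0.111), with 1 form, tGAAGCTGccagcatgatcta, called at 0.50 ± 0.18 (adjusted p = 0.0378). With upper-quartile scaling that form was at 0.25 (adjusted p = 0.414), and its call was also lost with 24 libraries in the fit, without A17 replicate 1 and without cra2 replicate 1 or 2. miR160, which targets other auxin response factors, was at -0.32 ± 0.24 (adjusted p = 0.332).

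Of the organ-development families, with 18 tested sequences, 5 sequences were lower and 0 higher (median 0.05), a share of lower calls near the 20.8% of all sequences. miR319, which targets TCP transcription factors, stood at 12179, 15042 and 8451 CPM in A17 and at 6786, 7550 and 7834 CPM in cra2. The groups did not overlap, but cra2 came close to A17 replicate 3. The change was -0.69 ± 0.19 (adjusted p = 0.00762). Of its forms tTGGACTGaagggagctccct was lower (-0.93), a call lost without A17 replicate 2. The call of tTGGACTGaagggagctccc (-0.61) was lost in 9 of 18 alternatives. tTGGACTGaagggagctccca was at -0.52 (adjusted p = 0.269) and aGAGCTCTcttcagtccactc at 0.59 (adjusted p = 0.435). miR171, which targets GRAS transcription factors, was at -0.32 ± 0.18 as a family (adjusted p = 0.175). Its opposite arm cGATGTTGgtgaggttcaatc, most of the family's counts (73.3% in A17, 61.3% in cra2), fell by 0.62 (SE 0.19, adjusted p = 0.0178). That call was lost with library totals (-0.48, adjusted p = 0.11), with 24 libraries in the fit, without A17 replicate 1 and without cra2 replicate 1 or 2, and its values without 1 library ran from -0.63 to -0.41. The miR171 form tGATTGAGccgcgtcaatatc passed narrowly (-0.75, adjusted p = 0.0492), and its call was lost in 16 of 18 alternatives. miR166, which targets HD-ZIP III transcription factors, was at 0.14 ± 0.16 (adjusted p = 0.503), and its forms differed in their values. tCGGACCAggcttcattccta was lower (-0.63 ± 0.17, adjusted p = 0.00695), a call lost with library totals and without A17 or cra2 replicate 2 (-0.68 to -0.38 without 1 library), while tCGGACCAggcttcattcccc, with the same seed and more abundant, was at 0.22 ± 0.16 (adjusted p = 0.34). The sign of that last value turned with upper-quartile scaling. miR159, which targets GAMYB transcription factors, was at -0.16 ± 0.17 (adjusted p = 0.486) and miR396, which targets growth regulating factors, at 0.17 ± 0.16 (adjusted p = 0.456). The family values of miR166 and miR396 changed sign in several alternatives.

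**Figure D3:**
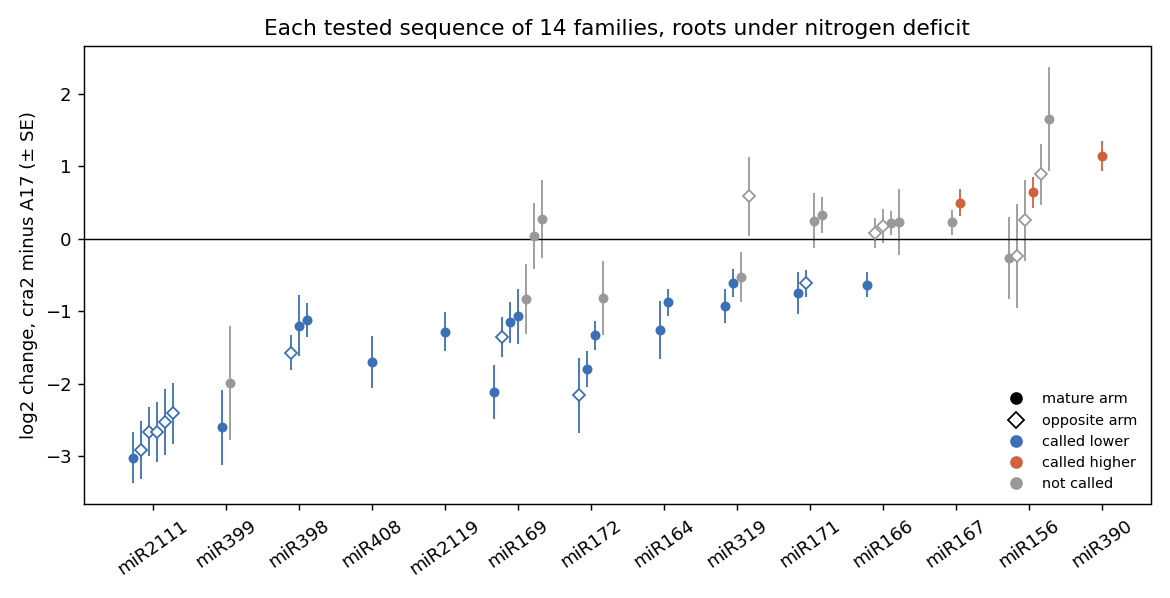
Log2 change (cra2 minus A17, bars are SE) of every tested sequence of 14 families in roots under deficit; filled circles are mature and open diamonds opposite-arm strands, coloured by call. All 6 miR2111 sequences lie between -3.02 and -2.41, whereas sequences of miR169, miR166 and miR156 lie on both sides of 0.

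No tested sequence passed in families that target the small RNA machinery or NB-LRR resistance genes, or trigger phasiRNAs, against 32.7% of all 168 sequences. Of these families 1 passed, miR1509, which holds 1 listed sequence. miR168, which targets AGO1, was at 0.01 ± 0.17 (7347 ± 239 against 7280 ± 869 CPM, adjusted p = 0.966) and miR162, which targets DCL1, at 0.28 ± 0.16 (adjusted p = 0.19). Both values turned negative with upper-quartile scaling. Of 5 tested sequences of the NB-LRR and phasiRNA list, which holds miR1507, miR1509, miR1510, miR2118 and miR5213, 0 passed (edgeR; median 0.24). miR2118, which targets NB-LRR transcripts, stood at 6145 ± 434 CPM in cra2 and 4601 ± 764 in A17 with no overlap, and its change of 0.42 ± 0.18 missed the threshold (adjusted p = 0.0858). miR1509, a phasiRNA trigger, passed narrowly as a family (0.66 ± 0.25, adjusted p = 0.0442). The same counts, tested as a sequence, were at 0.63 and missed the threshold (adjusted p = 0.0559). The family call was lost in 15 of 18 alternatives, among them each of the 6 that left out 1 library. All 10 of the other called families kept their call in every alternative run.

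Outside the named families, the strongest decreases fell on sequences A, B and C. A stood at 736, 783 and 860.1 CPM in A17 and at 142, 203 and 96.0 CPM in cra2, a change of -2.43 ± 0.28 (adjusted p = 2.03e-06). B stood at 33.8, 23.5 and 50.4 CPM in A17 and at 10.5, 12.2 and 4.97 CPM in cra2, a change of -1.96 ± 0.40 (adjusted p = 0.000647). A and B pair over 18 positions with 1 mismatch and the 2 nt overhangs of a duplex cut from a hairpin, and both fell. C stood at 91.3, 72.9 and 125 CPM in A17 and at 14.7, 19.6 and 7.45 CPM in cra2, a change of -2.79 ± 0.40 (adjusted p = 2.47e-05). The files do not name these sequences, and no annotation of them was used here.

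Increases outside the named families ranged from 0.69 to 2.26, and the largest were in rare sequences. D stood at 3.75, 3.92 and 3.23 CPM in A17 and at 11.5, 17.1 and 24.01 CPM in cra2 (2.26 ± 0.46, adjusted p = 0.000647). E stood at 5.0, 7.06 and 4.52 CPM in A17 and at 22.0, 29.3 and 19.04 CPM in cra2 (2.09 ± 0.39, adjusted p = 0.000262). Both were above A17 in every cra2 library and were called under all 4 scalings. F was far more abundant, at 1177 ± 262 CPM in A17 and 2225 ± 165 in cra2 (0.92 ± 0.20, adjusted p = 0.000988). F shares its seed with the miR1509 strand, tTAATCTAggaaaatacggtg, which was at 0.63 ± 0.25 (adjusted p = 0.0559). G rose from 329 ± 70.8 to 623 ± 29.8 CPM (0.92 ± 0.22, adjusted p = 0.00264). H, which pairs with G over 18 positions with 1 mismatch, was higher as well (0.81 ± 0.30, adjusted p = 0.0451), but its call was lost without any 1 of 5 of the 6 libraries (adjusted p up to 0.185). Of 17 tested sequences of 24 nt, the length typical of siRNAs that guide DNA methylation, 1 was higher and 0 lower. Over all 168 sequences 11.9% were higher and 20.8% lower. The 24 nt call, aAAAGAATactcatacataacatt at 1.17 (adjusted p = 0.0225), was lost in 5 of 18 alternatives, 3 of them without 1 library.

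The same genotype contrast in roots under satiety, which shares no library with the one under deficit, called 44 of 168 sequences (26.2%), 15 (8.93%) higher and 29 (17.3%) lower. Of the lower calls 22 were made in both treatments, which is 62.9% of those under deficit and 75.9% of those under satiety. Of the higher calls 9 were made in both, 45% and 60%, and 0 sequences were called in opposite directions. Of the 24 families 8 (33.3%) were lower under satiety and 0 (0%) higher, and all 8 were also lower under deficit. Over all 129 entries, families and unassigned sequences together, 21 (16.3%) were lower under satiety and 2 (1.55%) higher. Increases were thus rare among all entries under satiety, not only among the named families. miR2111 was at 325 ± 50.7 CPM in A17 and 58.2 ± 35.3 in cra2 under satiety, a change of -2.49 ± 0.37. miR399 was at 66.6 ± 9.15 and 7.08 ± 2.59 CPM (-3.24 ± 0.36). Under deficit miR399 stood at 30.8 ± 4.46 CPM in A17 and 4.45 ± 3.05 CPM in cra2, so both means were higher under satiety. Levels were not tested between treatments within a genotype. The difference of its genotype contrast between treatments was 0.47 ± 0.61 (edgeR, adjusted p = 0.68). miR398 was at 2256 ± 469 and 485 ± 130.2 CPM under satiety (-2.22 ± 0.21). miR390 was at 755 ± 59.7 and 897 ± 220.3 CPM (0.25 ± 0.19, adjusted p = 0.489). Sequences A, B and C were lower under satiety as well, at -3.26, -2.55 and -3.50 in the table of sequences. In the family table, which gave the family values above and was scaled separately, they were at -3.57, -2.86 and -3.80.

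The difference of the 2 genotype contrasts was tested as an interaction. Of 168 sequences 0 (0%) passed (edgeR), with 21 at an unadjusted p under 0.05, and DESeq2 called 0. In the family table, 2 of 129 entries (1.55%) passed. The first, gCTGGAAGgttttgtaggaac, stood at 720 ± 122 CPM in cra2 and 679 ± 160.4 in A17 under deficit, and at 507 ± 11.1 and 1146 ± 79.9 under satiety (difference 1.26 ± 0.27, adjusted p = 0.016). The second, aCCGGATTtccttgattaaag, stood at 1012 ± 183 and 576 ± 78.7 CPM under deficit and at 773 ± 169 and 1012 ± 196 under satiety (1.2 ± 0.29, adjusted p = 0.0273). Both were lost with RLE, library-total and upper-quartile scaling and with DESeq2, where the table had 0 calls. Leaving out 1 library ended the call of the first in 9 of 12 fits (0.73 to 1.31) and of the second in 11 of 12 (0.70 to 1.44). Of the named families 0 (0%) passed, and the closest were miR390 (0.94 ± 0.27, adjusted p = 0.0623) and miR398 (0.95 ± 0.29, adjusted p = 0.0824). Without cra2 satiety replicate 2 both passed, miR390 at 1.14 (adjusted p = 0.0189) and miR398 at 1.25 (adjusted p = 0.0118). Without any 1 of the other 11 libraries neither passed. Without 1 library the values ran from 0.51 to 1.14 for miR390 and from 0.40 to 1.25 for miR398. With upper-quartile scaling they were 0.31 (adjusted p = 0.666) and 0.33 (adjusted p = 0.627), and with RLE scaling 0.59 and 0.60 (adjusted p = 0.377 each). The difference for miR2111 was -0.15 ± 0.51 (adjusted p = 0.857), and its sign turned without cra2 satiety replicate 2.

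The genotype contrast in shoots under deficit gave other values for several families, and the difference between organs was tested over all 24 libraries. It passed for 19 of 151 entries (12.6%), of which 6 were among the 24 named families (25%). miR172 stood at 2593 ± 412 CPM in A17 shoots and 3180 ± 656 in cra2 shoots (0.29 ± 0.24), and its contrast was lower in roots by 1.81 (difference -1.81 ± 0.34, adjusted p = 0.000695). miR399 was at 14.9 ± 4.05 and 12.9 ± 0.483 CPM in shoots (-0.19 ± 0.32), with a difference of -2.72 ± 0.51 (adjusted p = 0.000695). miR390 was at 306 ± 35.8 and 213 ± 58.9 CPM in shoots (-0.52 ± 0.21), with a difference of 1.55 ± 0.30 (adjusted p = 0.000757). These 3 differences passed in each of 20 alternatives, 12 of which left out 1 library.

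miR2111 was low in cra2 in both organs: in shoots it stood at 945, 1048 and 1297 CPM in A17 and at 341, 52.6 and 29.1 CPM in cra2 (-2.95 ± 0.64). Its difference between organs was 0.12 ± 0.86 (adjusted p = 0.957). That value rested on cra2 shoot replicate 1, the highest of its group, and without it the difference was 1.94 (adjusted p = 0.0377). miR408 was low in cra2 shoots (77.2 ± 45 against 9.09 ± 4.89 CPM, -3.10 ± 0.49), with a difference between organs of 1.32 ± 0.66 that missed the threshold (adjusted p = 0.191). miR169 was at -1.20 ± 0.31 in shoots and was the third family lower in cra2 in both organs. In shoots 9 of the 24 named families (37.5%) were lower in cra2, against 22 of all 151 entries (14.6%).

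**Figure D4:**
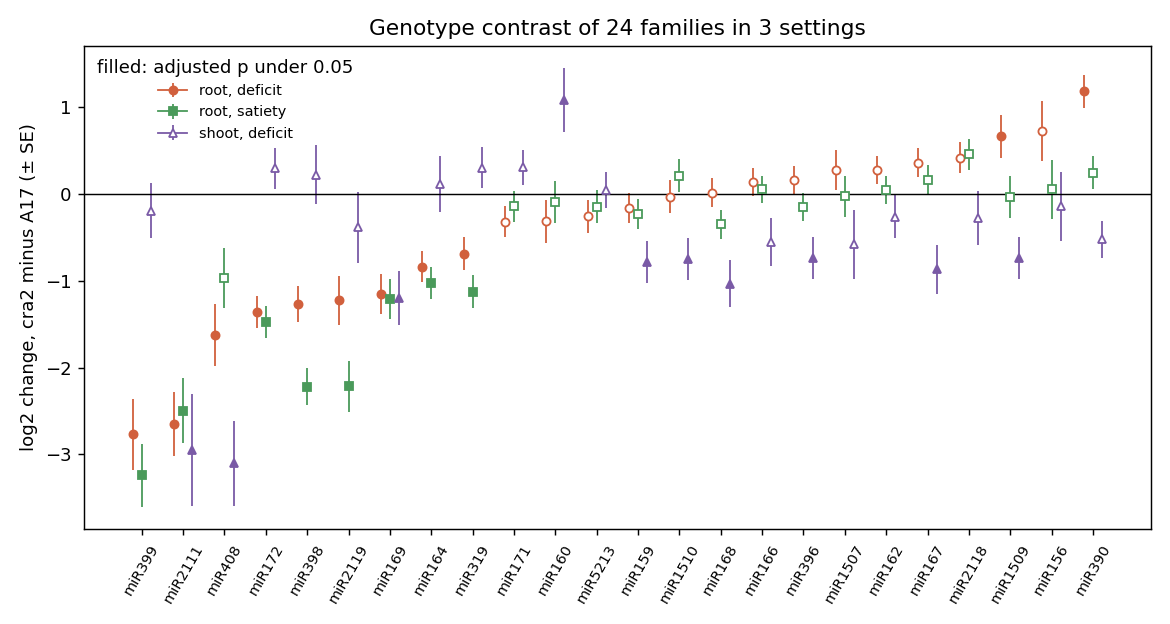
Log2 change (cra2 minus A17, bars are SE) of 24 families in roots under deficit, roots under satiety and shoots under deficit, ordered by the value in roots under deficit; filled symbols passed at adjusted p under 0.05. miR399 and miR172 lie near 0 in shoots (-0.19 and 0.29) and well below it in both root treatments, whereas miR2111 is low in all 3 settings.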

How the data were processed

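Per the labels, libraries were built from total RNA (miRNeasy extraction) with a NEXTFLEX small RNA kit and selected by size. Per the submitters' processing notes reads passed through cutadapt. The sources used here give neither its version nor the aligner, the counting tool, the genome build or the origin of the listed sequences. The authors deposited raw counts, whole numbers for each listed sequence, which were used unchanged. Counts of 6 deficit root libraries were compared within a fit of all 12 root libraries (4 group means), and the organ test used all 24 libraries.

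Tests used edgeR 4.0.16 (R 4.3.3; glmQLFit with robust estimation, glmQLFTest), TMM scaling, filterByExpr with a minimum count of 10 and Benjamini-Hochberg adjustment over all sequences or entries tested. SEs are the absolute log2 change divided by the square root of F. DESeq2 1.42.0 was an alternative. Of 306 sequences with a count 138 were too rare to test. On data simulated from the root libraries for the sequence contrast (167 sequences tested), 12 of 20 sequences changed by log2 1, 20 of 20 changed by log2 2 and 0 of 127 unchanged sequences were called. The simulation used a spread that followed the mean level, as many increases as decreases, and no change in the miR159 sequence. The real calls were uneven in direction, so it does not show how the scaling acts on them.

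Families were named from short letter patterns of known plant miRNAs. An opposite-arm strand was assigned when it paired with a mature strand over at least 16 positions with at most 3 mismatches and at most 4 G-U pairs. An overhang of 2 nt was sought, with a shift of 1 nt either way allowed. Strands that carried a known opposite-arm pattern were assigned as well. No genome was used here, so precursors and positions were not analysed here. Members, lists and named items were chosen with earlier results of these data known. Named items were all families, the 15 largest called changes of sequences in each direction without overlap between genotypes, sequences of called families, the 5 most abundant sequences and sequences absent from 1 genotype. Other called forms of miR156, miR166, miR167 and miR171, and rare or uncalled forms set beside them, were named after their values were seen. For count ratios the floor is 3 counts. The smaller cra2 libraries give a coarser limit: 3 counts equal 2.61 to 3.9 CPM there and 1.92 to 2.21 CPM in A17.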

Additional observations from a re-analysis of the deposited data

Results flagged for a closer look

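The genotype contrast differed between roots and shoots under deficit, by a test of the difference itself (edgeR, adjusted over 151 entries), for 6 families. The difference (root minus shoot, log2) was -1.81 for miR172, -2.72 for miR399 and 1.55 for miR390, as described above. It was 1.25 for miR1509 (adjusted p = 0.0213), which was at 0.66 in roots and -0.74 in shoots, and this call was lost without A17 shoot replicate 2 or cra2 root replicate 1, with library totals (0.69, adjusted p = 0.267) and with no filter (adjusted p = 0.0518). It was -1.65 for miR398 (adjusted p = 0.023), with shoot levels of 2693 ± 978 CPM in A17 and 3143 ± 1994 in cra2. Its call was lost in 6 of the 12 fits without 1 library, those without A17 root replicate 3, A17 shoot replicate 1 or 2, cra2 root replicate 1 or 3, or cra2 shoot replicate 1, where values over all 12 ran from -1.97 to -0.96. It was -1.13 for miR319 (adjusted p = 0.0263), with shoot levels of 6390 ± 303 CPM in A17 and 7885 ± 2715 in cra2. Its call was lost in 7 of those 12 fits, without A17 root replicate 2, A17 shoot replicate 2 or 3, any cra2 root replicate or cra2 shoot replicate 2, and with upper-quartile scaling (adjusted p = 0.0591).

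Between deficit and satiety the root contrast differed for gCTGGAAGgttttgtaggaac (1.26) and aCCGGATTtccttgattaaag (1.2) in the family table, but for neither in the table of sequences, where 0 of 168 differences passed and 21 had an unadjusted p under 0.05 (DESeq2 0). Their calls were lost in 15 and 17 of 20 alternatives, among them 9 and 11 of the 12 that left out 1 library, where the values ran from 0.73 to 1.31 and from 0.70 to 1.44. Among those 12 fits the first kept its call only without A17 deficit replicate 2 or cra2 satiety replicate 1 or 2, and the second only without cra2 satiety replicate 2. Both also kept it with a filter of 10 CPM in 3 libraries (adjusted p = 0.0168 and 0.0341). The same held with the replicate number as a block (adjusted p = 0.0114 and 0.0223).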

How the results depend on the processing

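Each result under deficit was recomputed under 18 alternatives, 6 of them without 1 library. Of 55 sequence calls 37 to 53 were counted without 1 library and 41 to 59 otherwise (24 libraries in the fit gave 41, thinning to the smallest root total, chosen after seeing the data, 51). The 39 calls of the family table became 25 without cra2 replicate 1 and 25 to 34 over the 6 libraries left out. Of 41 named sequences called, 27 were called in every alternative run, 14 were lost in at least 1 and 0 changed sign. Of 13 families not called, 8 changed sign and 7 passed in at least 1 alternative: miR171 in 6 of 18 (adjusted p down to 0.0154), miR5213 in 3, miR156 in 2 and miR159, miR160, miR167 and miR2118 in 1 each. With upper-quartile scaling values became -0.0854 for miR1507, -0.0708 for miR162, -0.22 for miR166, -0.001376 for miR167, -0.33 for miR168 and -0.18 for miR396, and for sequences -0.19 (cAGCCAAGggtgatttgccgg), -0.0313 (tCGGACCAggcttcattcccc), -0.0138 (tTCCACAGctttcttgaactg) and -0.22 (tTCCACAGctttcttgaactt).

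Further sign changes, all small and uncalled, were -0.0045 for miR168 with the 10 CPM filter, -0.11 with RLE or DESeq2, -0.15 with 24 libraries, -0.23 with the 6 compared libraries, -0.26 with mature arms only, -0.19 with no filter, -0.16 thinned and -0.23 without the miR159 sequence. miR166 was at -0.0098 with 24 libraries, -0.09545 with the 6 compared, -0.10 without miR159, -0.01415 with mature arms only, -0.06115 with no filter and -0.0422 thinned. miR396 was at -0.0812 with the 6 compared libraries, -0.0832 without miR159, -0.0383 with no filter and -0.0167 thinned. miR1510 was at 0.07 with library totals and miR171 at 0.0442 with mature arms only. With 24 libraries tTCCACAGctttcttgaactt was at -0.0289 and cAGCCAAGggtgatttgccgg at -0.0053. Without 1 library the ranges were -0.0972 to 0.41 (miR1507), -0.0964 to 0.0573 (miR166), -0.25 to -0.059 (miR168), -0.17 to 0.19 (miR396), -0.40 to 0.29 (cAGCCAAGggtgatttgccgg), -0.0211 to 0.18 (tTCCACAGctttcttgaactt) and -0.25 to 0.0500 (the miR159 sequence). The miR2111 difference between treatments ran from -0.72 to 0.46 without 1 library. Its difference between organs ran from -0.32 to 1.94 and was -0.42 with library totals, -0.0019 with no filter, -0.0251 with the 10 CPM filter and -0.0530 without miR159.

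The 2 differences between treatments in the family table became 0 with RLE, library-total or upper-quartile scaling, DESeq2 or without the miR159 sequence, 5 with the replicate block and 0 to 5 without 1 library. Among sequences the 0 became 0 to 1 without 1 library, and the 19 differences between organs became 7 to 34, 7 without A17 shoot replicate 2, 9 without cra2 root replicate 1 and 34 without cra2 shoot replicate 3. The cause was not tested. Deviations of same-numbered A17 and cra2 root libraries correlated at 0.0048, 0.15 and -0.13 under deficit and at 0.22, -0.0891 and 0.31 under satiety. Of these 6 pairs 3 were above 0.1, which does not settle whether a shared replicate number is more than a label. The main fits used no pairing. Whether root and shoot libraries of the same number came from the same plants was not checked, and the organ test treated them as independent. With the number as a replicate block the counts were 56 sequences and 46 entries under deficit, 45 sequences under satiety, 0 differences between treatments among sequences and 18 between organs. The block brought the treatment differences of miR390 (0.96, adjusted p = 0.0315) and miR398 (0.96, adjusted p = 0.0492), and the deficit contrasts of miR156 (0.78, adjusted p = 0.03) and miR2118 (0.43, adjusted p = 0.043), past the threshold. Depth limits the rare sequences, and 138 with counts were not tested.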
